A study of Mus musculus with 15 samples.

Results

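Conventional dendritic cells of type 2 (cDC2) that lack the kinase LKB1 were compared with conventional dendritic cells of type 1 (cDC1) that lack it, to see which genes separate the subsets when LKB1 is absent. All libraries labelled cDC2 KO (3) and cDC1 KO (2) were taken, 5 of the 15 libraries of the series, and all 22165 genes of the count table were considered. KO denotes Itgax-cre Stk11 fl/fl mice, in which Cre driven by the promoter of the CD11c gene deletes Stk11, the gene of LKB1, in cells that express CD11c. The other groups were cDC2 WT (2 libraries), cDC1 WT (2), pDC KO (3) and pDC WT (3), where pDC are plasmacytoid dendritic cells, and the WT pair served as the setting with LKB1 present. Male and female C57BL/6 mice 8 to 12 weeks old were used, and all of them, WT included, bore a B16 melanoma under the skin. The tumour cells released Flt3L, which drives dendritic cell numbers up. Thymi were taken 9 to 12 days after injection, enriched for CD11c+ cells on beads and sorted. The cDC1 were CD8a+CD11c+MHCII+, the cDC2 were CD11b+CD11c+MHCII+, and the pDC were Siglec-H+ with intermediate CD11c. The labels do not say whether libraries of a group came from separate mice. The p-values rest on the spread between libraries of a group, pooled over all 15 libraries, and that spread may be technical.

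Dendritic cells present antigen to T cells, and in the thymus they take part in deleting self-reactive thymocytes and in raising regulatory T cells. The cDC1 lineage depends on the transcription factors IRF8 and BATF3 and is known for uptake of dead cells and cross-presentation to CD8+ T cells. The cDC2 lineage uses IRF4, ZEB2, KLF4 and Notch signals, carries CD11b, SIRPα and many myeloid lectins, and is known for presentation to CD4+ T cells. LKB1 is a serine/threonine kinase that activates AMPK and its relatives, among them the salt-inducible kinases, and thereby ties metabolism and signalling together.

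Each library was a set of strand-specific 3′ tags, amplified by 12 PCR cycles and counted per gene without molecular identifiers. Total counts were 6480821, 12142712 and 7345609 in cDC2 KO and 7490137 and 7018021 in cDC1 KO, and 3928164 and 6705249 in cDC2 WT and 4105082 and 5249274 in cDC1 WT. Between 12909 and 13797 genes had a count in cDC2 KO libraries and between 12999 and 13144 in cDC1 KO libraries. Mitochondrial genes took 1.8% to 1.99% of the counts in cDC2 KO and 2.61% to 2.91% in cDC1 KO, and genes of ribosomal proteins took 4.99% to 5.8% in cDC2 KO and 6.04% to 6.14% in cDC1 KO. The part of these shares in the results below was not tested. Values are given as CPM, counts scaled to a common library size, in the order of the library numbers. Differences are log2 values of cDC2 minus cDC1. A gene is called when its Benjamini-Hochberg adjusted p from edgeR's quasi-likelihood test is under 0.05. The standard errors beside the differences are approximate. They were worked back from the difference and the F statistic of that test, not fitted separately.

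The genes that bear on the labels were examined first. Stk11 (ENSMUSG00000003068, chr10:80115803-80130682, plus strand) had 36.1, 28.2 and 29.2 CPM in cDC2 KO and 30.6 and 18.4 CPM in cDC1 KO, against 34.2 and 34.9 CPM in cDC2 WT and 35.6 and 54.2 CPM in cDC1 WT. Tags at the 3′ end of a transcript can lie outside a deleted part of the gene, so these values check nothing about the deletion. The KO subsets overlapped, and the difference between them was 0.35 ± 0.33 (adjusted p = 0.965). The cDC2 KO libraries also overlapped those of cDC2 WT, while both cDC1 KO libraries lay below both cDC1 WT libraries. Itgam (ENSMUSG00000030786, chr7:128062640-128118491, plus strand), which encodes CD11b, was used to sort cDC2 and had 212, 260.3 and 161 CPM in cDC2 KO, against 13.1 and 9.92 CPM in cDC1 KO. Cd8a (ENSMUSG00000053977, chr6:71373427-71379173, plus strand), used to sort cDC1, had 14.7, 9.97 and 10.6 CPM in cDC2 KO, against 141 and 114 CPM in cDC1 KO. Both genes followed their gates in every library, 18.3-fold higher for Itgam and 10.9-fold lower for Cd8a in cDC2 KO, and both are checks of the sort rather than results. The exons of Itgam overlap those of Gm49368 on the same strand in the annotation, so some of its reads may belong to that gene. Itgax, which encodes CD11c and was part of both gates, had 244, 244 and 254 CPM in cDC2 KO and 135 and 158 CPM in cDC1 KO, a difference of 0.76 ± 0.26 that was not called (adjusted p = 0.225).

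Of the 11746 genes with enough counts to test, 149 were called between cDC2 KO and cDC1 KO, which is 1.27% of them. In cDC2 KO 85 genes were higher (0.724%) and 64 were lower (0.545%), and for all 149 the ranges of the cDC2 KO and cDC1 KO libraries did not overlap. Over all tested genes, every cDC2 KO library was above every cDC1 KO library for 16.2% of the genes and below for 18.5%, called or not. At an unadjusted p under 0.05 there were 1029 genes (8.76%). The median difference over all tested genes was -0.02, and the median standard error was 0.46. The count depended on single libraries, with 43 genes called without cDC1 KO 1, 34 without cDC1 KO 2, and 102, 93 and 83 without cDC2 KO 1, 2 and 3 in turn. Trim5, Zbtb18 and Spn, named below only for promoter motifs, were left out of this check. Among the 75 other called genes named in this text, 20 kept their call without each of the 5 libraries in turn. The remaining 55 lost it without at least 1. The 20 were Sirpa, Itgam, Cd300lf, Pltp, Ms4a4c, Ifit1, Ifi206, Cd72, Bex6, Cdh1 and Zeb2, all higher in cDC2 KO, and Cd8a, Agpat3, Ppt1, P2ry14, Gusb, Fcrla, Ttc39a, Ptprf and Plpp1, all lower in cDC2 KO. A test against a fold threshold of 1.5 ended the calls of 12 of the 75 genes (Cd36, Treml4, Mpeg1, Cx3cr1, Sirpb1a, Ms4a6d, Isg20, Ccr9, Spib, Cdh5, Galc and Sh2d5), and DESeq2 that of Treml4.

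Surface receptors known from cDC2 formed the largest group of higher genes among the lists examined. Of 25 tested genes in a list of cDC2 surface and lectin genes, 11 were higher in cDC2 KO and 0 were lower, with a median difference of 2.44. The 11 include Itgam, whose protein was sorted on. Sirpa (ENSMUSG00000037902, chr2:129592835-129632228, plus strand) encodes SIRPα, an inhibitory receptor for CD47 that marks cDC2. It had 155, 218 and 151 CPM in cDC2 KO, against 13.5 and 14.2 CPM in cDC1 KO. Every cDC2 KO library was far above both cDC1 KO libraries, and the gene was 12.6-fold higher in cDC2 KO (3.66 ± 0.33, adjusted p = 1.03e-05), with the smallest p of all higher genes. Averages were 175 ± 37.8 CPM in cDC2 KO (SD, n = 3) and 13.8 ± 0.476 CPM in cDC1 KO (SD, n = 2). Cd300lf (ENSMUSG00000047798, chr11:115116214-115133992, minus strand), an inhibitory receptor of the CD300 family that binds phosphatidylserine and ceramide, had 87.9, 79.2 and 121 CPM in cDC2 KO, against 6.93 and 6.42 CPM in cDC1 KO. The groups stood well apart, and the gene was 14.3-fold higher in cDC2 KO (3.84 ± 0.39, adjusted p = 3.97e-05). Cd300a, a related inhibitory receptor, had 160.5, 102 and 121 CPM in cDC2 KO, against 17.7 and 19.5 CPM in cDC1 KO, and was 6.86-fold higher (2.78 ± 0.43, adjusted p = 0.00213).

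**Figure D1:**
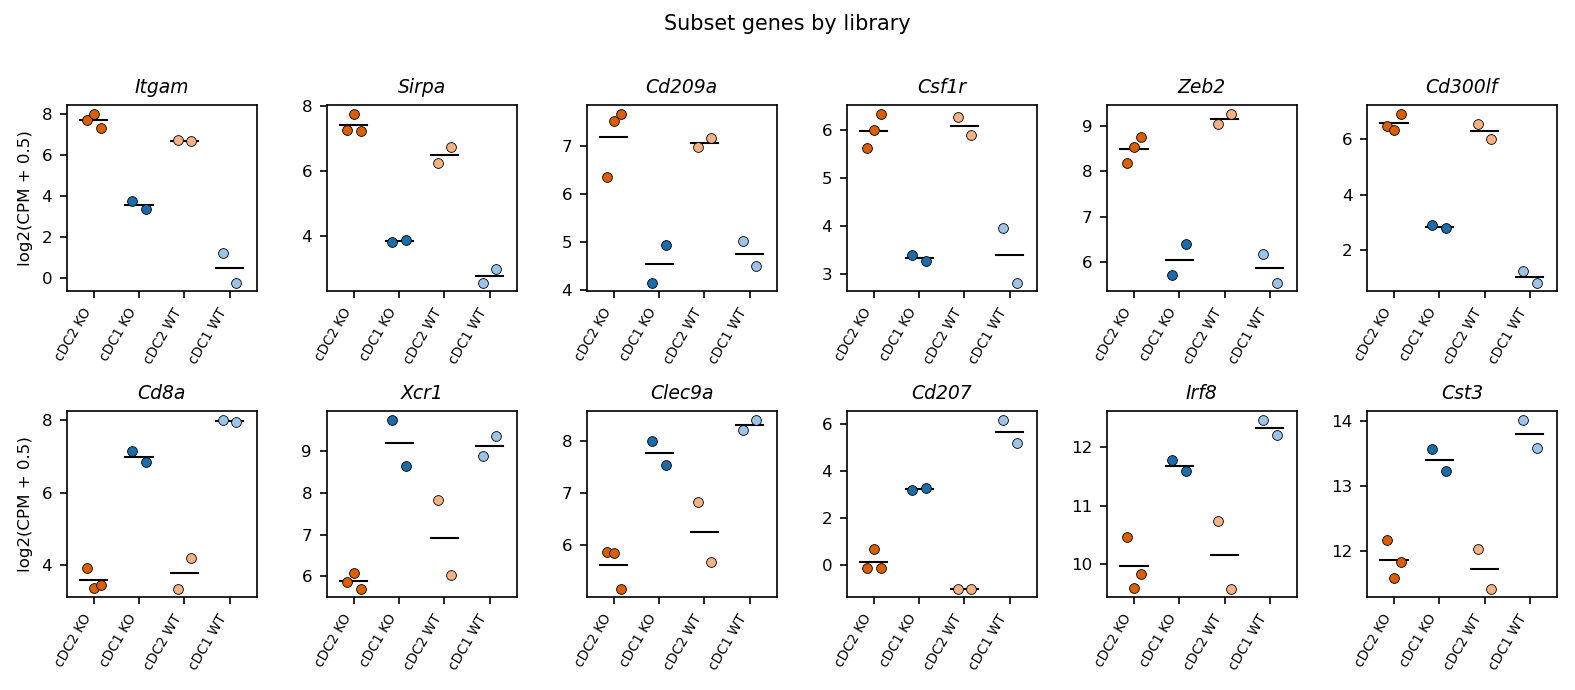
Level of 12 subset genes in each library, as log2 of CPM plus 0.5, with cDC2 KO, cDC1 KO, cDC2 WT and cDC1 WT from left to right in each panel. Points are libraries and bars are group means; the upper row holds genes that were higher in cDC2 KO and the lower row genes that were lower, and in all 12 panels the cDC2 KO and cDC1 KO points do not overlap.

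The C-type lectins of the Clec4a group, which lie together on chromosome 6 and bind sugars on the cell surface, were higher for 3 of the 4 tested members, a family singled out after its values had been seen. Clec4a3 had 33.7, 30.00 and 32.7 CPM in cDC2 KO, against 0.654 and 0.292 CPM in cDC1 KO, and was 64.6-fold higher in cDC2 KO (6.01 ± 0.94, adjusted p = 0.0022). Clec4a1 had 50.8, 33.8 and 37.3 CPM in cDC2 KO, against 0.654 and 1.60 CPM in cDC1 KO (difference 5.16 ± 0.88, adjusted p = 0.00546), and Clec4a2 had 20.3, 20.6 and 27.01 CPM in cDC2 KO, against 1.31 and 0.583 CPM in cDC1 KO (difference 4.54 ± 0.83, adjusted p = 0.00651). Both were close to absent in cDC1 KO. The fourth gene, Clec4a4, which encodes the 33D1 antigen of splenic cDC2, had 3.71, 11.2 and 1.89 CPM in cDC2 KO, against 1.57 and 0.292 CPM in cDC1 KO, low and uneven levels with a difference that was not called (2.57 ± 1.65, adjusted p = 0.808). The 4 genes are close relatives, and how reads that match several of them were counted is not given, so their separate levels are uncertain. Cd209a, a mouse relative of DC-SIGN, had 80.9, 182 and 203 CPM in cDC2 KO, against 17.3 and 30.3 CPM in cDC1 KO. Its lowest cDC2 KO library was still above both cDC1 KO libraries, and it was 6.53-fold higher (2.71 ± 0.47, adjusted p = 0.00475). Mgl2, a galactose-binding lectin of cDC2, had 57.8, 136 and 142 CPM in cDC2 KO, against 18.8 and 22.6 CPM in cDC1 KO, and narrowly missed the threshold (2.44 ± 0.59, adjusted p = 0.051). Clec4a1, Clec4a2, Cd209a and Cd300a lost their calls without cDC1 KO 1 (adjusted p 0.0641 to 0.141). Clec4a1, Clec4a2, Clec4a3 and Cd300a lost their calls without cDC1 KO 2 (adjusted p 0.0549 to 0.172). The difference was 5.92 for Clec4a1 without cDC1 KO 2, and 5.24 for Clec4a2 and 6.70 for Clec4a3 without cDC1 KO 1, each over 1.5 times in fold from its value with all libraries.

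Among receptors for growth factors and chemokines, Csf1r and Cx3cr1 were higher in cDC2 KO. Csf1r, the receptor of macrophage colony-stimulating factor, had 48.4, 63.5 and 80.01 CPM in cDC2 KO, against 10.1 and 9.19 CPM in cDC1 KO, and was 6.63-fold higher (2.73 ± 0.54, adjusted p = 0.0111). It was the single called gene among 23 tested growth factor and cytokine receptors, whose median difference was 0.39. Flt3, the receptor of the Flt3L that the tumour supplied, had 268, 215 and 186 CPM in cDC2 KO and 234 and 209 CPM in cDC1 KO. The groups overlapped, and the difference was 0.01 ± 0.26 (adjusted p = 1). Cx3cr1, the fractalkine receptor, had 102, 92.9 and 87.3 CPM in cDC2 KO, against 15.7 and 22.2 CPM in cDC1 KO, and was 4.96-fold higher (2.31 ± 0.50, adjusted p = 0.0219). The chemokine receptors Xcr1, Cxcr3 and Ccr9 were lower in cDC2 KO. Among 16 tested chemokines, Ccl6 and Ccl9, neighbouring CC chemokines of myeloid cells on chromosome 11, were higher and 0 were lower. Ccl6 had 26.7, 26.6 and 21.9 CPM in cDC2 KO, against 2.35 and 3.06 CPM in cDC1 KO (3.21 ± 0.62, adjusted p = 0.00955), and Ccl9 had 20.97, 22.4 and 20.3 CPM in cDC2 KO, against 0.785 and 1.90 CPM in cDC1 KO (3.98 ± 0.88, adjusted p = 0.0289). Sirpb1a, an activating relative of Sirpa, had 8.56, 8.14 and 10.8 CPM in cDC2 KO, against 0.131 and 0 CPM in cDC1 KO, where a single read was counted (6.74 ± 1.47, adjusted p = 0.0385). Shared reads with other genes of the SIRP family make its level uncertain. Csf1r, Cx3cr1, Ccl6, Ccl9 and Sirpb1a lost their calls without cDC1 KO 1 (adjusted p 0.169 to 0.395). Csf1r, Cx3cr1, Ccl6, Ccl9 and Sirpb1a lost their calls without cDC1 KO 2 (adjusted p 0.145 to 0.436). Cx3cr1, Ccl9 and Sirpb1a lost their calls without cDC2 KO 1 (adjusted p 0.0637 to 0.121). Cx3cr1, Ccl9 and Sirpb1a lost their calls without cDC2 KO 2 (adjusted p 0.0526 to 0.125). Csf1r, Cx3cr1, Ccl9 and Sirpb1a lost their calls without cDC2 KO 3 (adjusted p 0.0526 to 0.138). Without cDC1 KO 2 the difference moved to 4.73 for Ccl9 and 5.95 for Sirpb1a, and without cDC1 KO 1 no read of Sirpb1a was left in cDC1 KO.

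Not every cDC2 surface gene was high in cDC2 KO. Cd4, carried by many splenic cDC2, had 5.14, 3.35 and 5.23 CPM in cDC2 KO and 5.10 and 5.11 CPM in cDC1 KO, levels that overlapped (-0.17 ± 0.38, adjusted p = 1). Clec12a, an inhibitory lectin that was on the cDC2 list, had 115, 103 and 71.9 CPM in cDC2 KO, against 222 and 223 CPM in cDC1 KO. All its cDC2 KO libraries were below the cDC1 KO libraries, and the difference of -1.20 ± 0.31 was not called (adjusted p = 0.0681). Among the 14 members that were not called, 9 had a positive and 5 a negative difference.

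Inside the cell, of 23 tested genes in a list of cDC2 intracellular and secreted products, 6 were higher in cDC2 KO and 1 was lower, with a median difference of 1.81. The higher genes included members of the Ms4a family, proteins that span the membrane 4 times, which lie in a cluster on chromosome 19. Ms4a4c (ENSMUSG00000024675, chr19:11404770-11427246, plus strand) had 322, 369.6 and 382 CPM in cDC2 KO, against 53.2 and 44.9 CPM in cDC1 KO. Its libraries differed little within each group, and it was 7.29-fold higher in cDC2 KO (2.87 ± 0.33, adjusted p = 0.000142). Ms4a6c had 676, 778 and 708 CPM in cDC2 KO, against 220.3 and 191 CPM in cDC1 KO (1.81 ± 0.28, adjusted p = 0.00213), and Ms4a6b had 197, 189 and 206 CPM in cDC2 KO, against 33.5 and 20.7 CPM in cDC1 KO (2.86 ± 0.52, adjusted p = 0.00655). Counting Ms4a6d (3.76, adjusted p = 0.0378), 4 of 10 tested members of the family were higher and 0 were lower, a family picked after its values had been seen. Reads shared between the Ms4a6 genes make their separate levels uncertain. Ifitm3, which blocks the entry of enveloped viruses, had 359.8, 549 and 455 CPM in cDC2 KO, against 78.4 and 77.9 CPM in cDC1 KO, and was 5.82-fold higher (2.54 ± 0.43, adjusted p = 0.00451). S100a6, a calcium-binding protein, had 381, 416 and 554 CPM in cDC2 KO, against 104 and 144 CPM in cDC1 KO (1.86 ± 0.34, adjusted p = 0.00608). The 1 lower gene was Cst3, which encodes cystatin C, an inhibitor of cysteine proteases, with 4602, 3052 and 3641 CPM in cDC2 KO, against 12150 and 9631 CPM in cDC1 KO (-1.53 ± 0.27, adjusted p = 0.00483). Ms4a6b, Ms4a6d, Ifitm3, S100a6 and Cst3 lost their calls without cDC1 KO 1 (adjusted p 0.0704 to 0.32). Ms4a6c, Ms4a6b, Ms4a6d, Ifitm3 and S100a6 lost their calls without cDC1 KO 2 (adjusted p 0.0669 to 0.522). Ms4a6d lost its call without cDC2 KO 1 (adjusted p = 0.0554). Ms4a6d lost its call without cDC2 KO 2 (adjusted p = 0.117). Ms4a6d lost its call without cDC2 KO 3 (adjusted p = 0.114).

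Cybb, the membrane-bound catalytic subunit of the phagocyte NADPH oxidase, which makes superoxide in phagosomes, had 1185, 908 and 1409 CPM in cDC2 KO, against 240.3 and 358 CPM in cDC1 KO. Its lowest cDC2 KO library was above both cDC1 KO libraries, and it was 3.90-fold higher in cDC2 KO (1.97 ± 0.29, adjusted p = 0.00162). Fcer1g, the signalling chain of activating Fc receptors, had 199, 192 and 205 CPM in cDC2 KO, against 49.97 and 70.3 CPM in cDC1 KO (1.73 ± 0.30, adjusted p = 0.00459). It was the 1 called gene among 12 tested Fc receptor and lectin signalling genes, 11 of which had a positive difference, with a median of 1.43. Cybb and Fcer1g lost their calls without cDC1 KO 1 (adjusted p 0.0641 to 0.151).

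On the cDC1 side, of 17 tested surface and uptake receptors of that subset, 8 were lower in cDC2 KO and 0 were higher, with a median difference of -2.13. The 8 include the sort gene Cd8a. Xcr1 (ENSMUSG00000060509, chr9:123852315-123862029, minus strand) is the receptor for the chemokine that CD8+ T cells and NK cells release, and it marks cDC1. It had 57.6, 67.1 and 51.4 CPM in cDC2 KO, against 862 and 401 CPM in cDC1 KO. The cDC1 KO libraries differed widely from each other but lay above all cDC2 KO libraries, and the gene was 10.8-fold lower in cDC2 KO (-3.43 ± 0.59, adjusted p = 0.00608). Clec9a (ENSMUSG00000046080, chr6:129408862-129424763, plus strand), a receptor for actin exposed on dead cells, had 57.8, 57.04 and 35.4 CPM in cDC2 KO, against 253 and 186 CPM in cDC1 KO, and was 4.38-fold lower (-2.13 ± 0.41, adjusted p = 0.00955). Its exons overlap those of Clec1b on the same strand. The scavenger receptor Cd36 had 8.13, 8.30 and 16.6 CPM in cDC2 KO, against 77.4 and 114 CPM in cDC1 KO (-3.13 ± 0.70, adjusted p = 0.0386). Cd207, which encodes langerin, a lectin of cross-presenting cells, had 0.428, 1.12 and 0.436 CPM in cDC2 KO, against 8.63 and 9.19 CPM in cDC1 KO, near the lower end of detection in cDC2 KO (-3.63 ± 0.74, adjusted p = 0.0213). Cxcr3, the receptor for interferon-induced CXC chemokines, had 4.42, 2.15 and 1.60 CPM in cDC2 KO, against 12.4 and 15.2 CPM in cDC1 KO (-2.35 ± 0.41, adjusted p = 0.00483). Treml4, a receptor that binds dying cells, had 2.996, 2.71 and 1.16 CPM in cDC2 KO, against 30.7 and 24.4 CPM in cDC1 KO (-3.57 ± 0.78, adjusted p = 0.0408). Cd24a, a small anchored glycoprotein, had 364, 199.7 and 288 CPM in cDC2 KO, against 792 and 952 CPM in cDC1 KO (-1.62 ± 0.28, adjusted p = 0.00483). Xcr1, Clec9a, Cd36, Cd207 and Treml4 lost their calls without cDC1 KO 1 (adjusted p 0.115 to 0.303). Cd36, Cd207, Cxcr3, Treml4 and Cd24a lost their calls without cDC1 KO 2 (adjusted p 0.0777 to 0.375). Cd36, Cd207 and Treml4 lost their calls without cDC2 KO 1 (adjusted p 0.111 to 0.186). Cd36, Cd207 and Treml4 lost their calls without cDC2 KO 2 (adjusted p 0.0502 to 0.194). Xcr1, Clec9a, Cd36, Cd207 and Treml4 lost their calls without cDC2 KO 3 (adjusted p 0.0508 to 0.172). The difference of Xcr1 moved to -2.77 without cDC1 KO 1, and that of Cd207 to -4.29 without cDC2 KO 2.

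Several cDC1 markers missed the threshold. Cadm1, an adhesion molecule of cDC1 that binds a T cell receptor called CRTAM, had 49.4, 53.5 and 75.5 CPM in cDC2 KO, against 593 and 674 CPM in cDC1 KO. The groups lay far apart, yet the difference of -3.41 ± 0.82 was not called (adjusted p = 0.0578). Tlr11, which senses profilin of protozoan parasites in mice, had 18.4, 15.6 and 8.42 CPM in cDC2 KO, against 90.00 and 76.4 CPM in cDC1 KO (-2.56 ± 0.64, adjusted p = 0.0688). Itgae, which encodes CD103, had 20.3, 21.4 and 23.96 CPM in cDC2 KO, against 44.5 and 27.3 CPM in cDC1 KO (-0.71 ± 0.55, adjusted p = 0.893). Of the 17 receptors, 16 had a negative difference.

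Of 20 tested intracellular genes of cDC1, 5 were lower in cDC2 KO and 0 were higher, 19 had a negative difference, and the median was -1.61. Several of the 5 act in lysosomes and late endosomes. Ppt1 (ENSMUSG00000028657, chr4:122836242-122859175, plus strand), which removes palmitate from proteins in lysosomes, had 491, 234 and 223 CPM in cDC2 KO, against 1733 and 1446 CPM in cDC1 KO, and was 5.03-fold lower (-2.33 ± 0.34, adjusted p = 0.00162). Naaa, a lysosomal hydrolase of lipid amides, had 634, 381 and 653 CPM in cDC2 KO, against 1895 and 1636 CPM in cDC1 KO (-1.67 ± 0.30, adjusted p = 0.00587). Rab7b, a small GTPase of late endosomes, had 152, 151 and 109 CPM in cDC2 KO, against 542 and 615 CPM in cDC1 KO (-2.08 ± 0.40, adjusted p = 0.00955). Mpeg1, a pore-forming protein of phagosomes, had 524, 838 and 268 CPM in cDC2 KO, against 1622 and 1668 CPM in cDC1 KO (-1.60 ± 0.37, adjusted p = 0.0378). Plpp1, a phosphatase of lipid phosphates, had 3.28, 2.47 and 4.07 CPM in cDC2 KO, against 35.2 and 41.4 CPM in cDC1 KO (-3.56 ± 0.58, adjusted p = 0.00313). In a list of 31 lysosomal acid hydrolases added after the values had been seen, 5 were lower (Ppt1, Gusb, Arsb, Galc and Naaa) and 0 were higher, with a median of -0.39. Gusb, the lysosomal β-glucuronidase, had 105, 86.00 and 68.1 CPM in cDC2 KO, against 367 and 289 CPM in cDC1 KO (-1.92 ± 0.30, adjusted p = 0.00213). Arsb, a sulfatase of glycosaminoglycans, had 57.5, 44.9 and 59.4 CPM in cDC2 KO, against 182 and 146 CPM in cDC1 KO (-1.61 ± 0.30, adjusted p = 0.00694), and Galc, which degrades galactolipids, had 0.571, 0.479 and 0.726 CPM in cDC2 KO, against 6.80 and 6.27 CPM in cDC1 KO (-3.45 ± 0.81, adjusted p = 0.0408). Among 14 tested cathepsins and cystatins, Ctsa, a lysosomal carboxypeptidase, was higher (79.3, 100.5 and 90.03 CPM in cDC2 KO, against 24.99 and 34.1 CPM in cDC1 KO, difference 1.61 ± 0.30, adjusted p = 0.00694) and Cst3 was lower. The exons of Ctsa overlap those of Pltp on the opposite strand. Naaa, Rab7b, Mpeg1, Arsb, Galc and Ctsa lost their calls without cDC1 KO 1 (adjusted p 0.0641 to 0.231). Rab7b, Mpeg1, Arsb, Galc and Ctsa lost their calls without cDC1 KO 2 (adjusted p 0.0528 to 0.245). Mpeg1 and Galc lost their calls without cDC2 KO 1 (adjusted p 0.141 to 0.16). Arsb and Galc lost their calls without cDC2 KO 2 (adjusted p 0.0526 to 0.191). Rab7b, Mpeg1 and Galc lost their calls without cDC2 KO 3 (adjusted p 0.0638 to 0.127).

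Few transcription factors of either lineage were called. Irf8 (ENSMUSG00000041515, chr8:120736358-120756694, plus strand), required for cDC1, had 1407, 766 and 904 CPM in cDC2 KO, against 3508 and 3077 CPM in cDC1 KO. The ranges did not overlap, and it was 3.21-fold lower in cDC2 KO (-1.68 ± 0.32, adjusted p = 0.00893). It was the 1 called gene of 9 tested factors of cDC1. Batf3, its partner in cDC1, had 107, 105 and 46.6 CPM in cDC2 KO and 90.8 and 70.6 CPM in cDC1 KO, which overlapped (0.10 ± 0.79, adjusted p = 1). Zeb2 (ENSMUSG00000026872, chr2:44983632-45117395, minus strand), a zinc-finger repressor needed by cDC2 and pDC in mice, had 290.2, 372 and 436 CPM in cDC2 KO, against 51.7 and 83.1 CPM in cDC1 KO. The libraries stood apart, and Zeb2 was 5.43-fold higher in cDC2 KO (2.44 ± 0.33, adjusted p = 0.000696), the 1 called gene of 18 tested factors of cDC2, whose median was 0.52. Irf4 had 41.8, 25.2 and 35.1 CPM in cDC2 KO and 8.89 and 25.2 CPM in cDC1 KO. The second cDC1 KO library matched the lowest cDC2 KO library to 3 digits, and the difference was not called (0.997 ± 0.86, adjusted p = 0.94). Klf4 had 2410, 1666 and 2312 CPM in cDC2 KO and 1382 and 1511 CPM in cDC1 KO (0.56 ± 0.36, adjusted p = 0.816). Irf8 lost its call without cDC1 KO 1 (adjusted p = 0.116). Irf8 lost its call without cDC1 KO 2 (adjusted p = 0.0669). Irf8 lost its call without cDC2 KO 2 (adjusted p = 0.0629). Irf8 lost its call without cDC2 KO 3 (adjusted p = 0.0567).

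Genes of the type I interferon response, which interferon induces through STAT and IRF factors to restrain viruses, were higher in cDC2 KO where called. Of 28 tested members, 5 were higher and 0 were lower, 26 had a positive difference, and the median was 0.98. The pattern was not particular to the KO subsets. Between the WT subsets, 8 of the 28 were higher in cDC2 WT and 0 were lower. There 19 had a positive and 9 a negative difference, with a median of 0.73. Ifit1 (ENSMUSG00000034459, chr19:34640871-34650009, plus strand) encodes a protein that binds viral RNA. It had 435, 306 and 304 CPM in cDC2 KO, against 29.3 and 36.6 CPM in cDC1 KO. Every cDC2 KO library was several times above both cDC1 KO libraries, and the gene was 10.6-fold higher (3.40 ± 0.39, adjusted p = 0.000123). Its relative Ifit3 had 40.9, 58.2 and 52.6 CPM in cDC2 KO, against 4.32 and 3.79 CPM in cDC1 KO (3.63 ± 0.56, adjusted p = 0.00213). Rsad2, which encodes viperin, had 339, 318 and 324 CPM in cDC2 KO, against 102 and 93.8 CPM in cDC1 KO, and was 3.33-fold higher (1.74 ± 0.31, adjusted p = 0.00625). Oasl2, of the oligoadenylate synthetase family, had 133, 89.8 and 106 CPM in cDC2 KO, against 18.2 and 16.5 CPM in cDC1 KO (2.66 ± 0.48, adjusted p = 0.00651), and Isg20, an RNA exonuclease, had 197, 185 and 261 CPM in cDC2 KO, against 97.1 and 71.3 CPM in cDC1 KO (1.35 ± 0.31, adjusted p = 0.0386). Outside the list, Ifi206 of the interferon-inducible p200 family had 68.9, 61.9 and 58.7 CPM in cDC2 KO, against 7.33 and 3.65 CPM in cDC1 KO, and was 11.4-fold higher (3.52 ± 0.42, adjusted p = 0.000169). Ddx60, a helicase of the antiviral response chosen after its values were seen, had 102, 73.8 and 85.8 CPM in cDC2 KO, against 12.03 and 11.4 CPM in cDC1 KO (2.90 ± 0.51, adjusted p = 0.00553), and Gbp7, an interferon-induced GTPase chosen likewise, had 68.05, 71.8 and 91.5 CPM in cDC2 KO, against 19.5 and 11.2 CPM in cDC1 KO (2.32 ± 0.47, adjusted p = 0.0137). Ifi206 was the 1 called gene of 10 tested members of its family, 7 with a positive and 3 with a negative difference. Gbp7 was the 1 called gene of 8 tested Gbp genes, of which 8 had a positive difference. Both families were counted after the values had been seen. Reads shared between Ifit3 and its copy Ifit3b make its level uncertain. Ifit3, Rsad2, Oasl2, Isg20, Ddx60 and Gbp7 lost their calls without cDC1 KO 1 (adjusted p 0.0546 to 0.171). Ifit3, Rsad2, Oasl2, Isg20, Ddx60 and Gbp7 lost their calls without cDC1 KO 2 (adjusted p 0.0678 to 0.547). Isg20 lost its call without cDC2 KO 1 (adjusted p = 0.0738). Isg20 lost its call without cDC2 KO 2 (adjusted p = 0.0551). Isg20 and Gbp7 lost their calls without cDC2 KO 3 (adjusted p 0.0567 to 0.148). Without cDC1 KO 1 the difference of Ifi206 was 4.11.

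**Figure D2:**
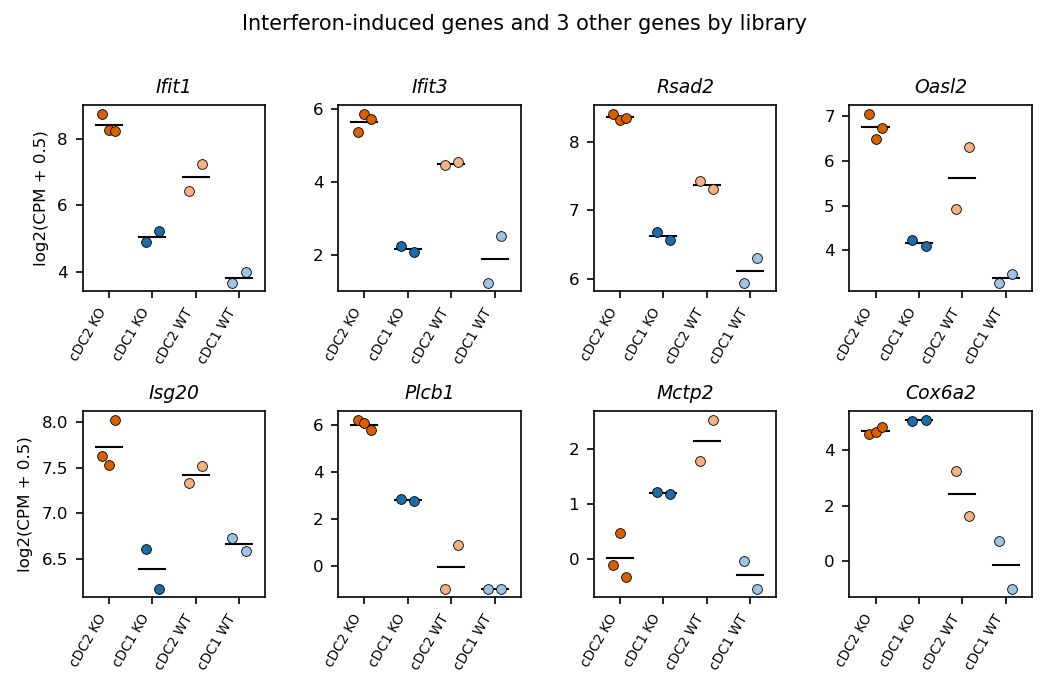
Level of 8 genes in each library, as log2 of CPM plus 0.5, with cDC2 KO, cDC1 KO, cDC2 WT and cDC1 WT from left to right; points are libraries and bars are group means. The 5 interferon-induced genes lie higher in all cDC2 KO libraries than in both cDC1 KO libraries, and Mctp2 and Cox6a2 lie lower in cDC2 KO than in cDC1 KO but higher in cDC2 WT than in cDC1 WT.

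The promoters of these genes were read from RefSeq (build GRCm38.p6), 300 bases each from 250 bases before the start of the gene to 50 after it, to look for the interferon-stimulated response element (ISRE), the site that interferon-activated factors bind. The higher genes were known to include interferon-induced genes when the search was made, so its counts describe their promoters and are no separate evidence. The motif was searched on both strands as 2 copies of GAAA with any 2 bases between them. It was found in 11 of the 66 promoters of higher genes that the table held (16.7%), in 3 of 49 promoters of lower genes (6.12%), in 378 of 9258 promoters of tested genes (4.08%) and in 3.99% of all 27025 promoters. The 11 genes were Cybb, Ddx60, Gbp7, Ifi206, Ifit1, Ifit3, Ifitm3, Rsad2, Sirpb1a, Trim5 and Zbtb18. In all, 9 motifs were searched, and those shown in sequences were picked after the counts had been seen. The promoters of Ifit1 (chr19:34640639-34640938, plus strand), Ifit3 (chr19:34583279-34583578, plus strand), Ddx60 (chr8:61927837-61928136, plus strand) and Rsad2 (chr12:26456403-26456702, minus strand) are shown 5′ to 3′ along the gene's strand as examples, with the motif in capitals in whichever direction it lies.
Ifit1 promoter: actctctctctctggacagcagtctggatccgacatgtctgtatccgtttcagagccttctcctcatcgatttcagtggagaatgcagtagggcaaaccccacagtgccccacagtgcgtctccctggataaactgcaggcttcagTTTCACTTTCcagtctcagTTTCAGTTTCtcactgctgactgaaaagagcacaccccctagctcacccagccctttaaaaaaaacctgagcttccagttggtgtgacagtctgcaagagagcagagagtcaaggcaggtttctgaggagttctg
Ifit3 promoter: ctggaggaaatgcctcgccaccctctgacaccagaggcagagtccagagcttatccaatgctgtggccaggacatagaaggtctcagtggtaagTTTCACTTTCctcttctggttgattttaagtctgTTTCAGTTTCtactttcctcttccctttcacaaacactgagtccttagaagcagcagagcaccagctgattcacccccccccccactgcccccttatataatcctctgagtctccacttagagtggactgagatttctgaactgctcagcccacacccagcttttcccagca
Ddx60 promoter: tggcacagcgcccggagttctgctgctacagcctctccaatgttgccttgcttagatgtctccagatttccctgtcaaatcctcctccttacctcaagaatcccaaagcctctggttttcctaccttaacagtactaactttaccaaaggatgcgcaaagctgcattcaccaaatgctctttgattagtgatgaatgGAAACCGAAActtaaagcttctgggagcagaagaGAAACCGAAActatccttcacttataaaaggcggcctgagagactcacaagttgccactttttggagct
Rsad2 promoter: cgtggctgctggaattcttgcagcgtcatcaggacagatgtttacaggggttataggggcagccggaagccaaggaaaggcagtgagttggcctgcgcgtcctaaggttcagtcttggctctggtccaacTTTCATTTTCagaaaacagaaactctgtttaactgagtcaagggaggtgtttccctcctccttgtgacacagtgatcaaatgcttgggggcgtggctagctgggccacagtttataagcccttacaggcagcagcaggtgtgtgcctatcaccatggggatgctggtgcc

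In the promoters of Ifit1, Ifit3 and Ddx60 the motif was found at 2 places each, and in that of Rsad2 at 1. The related ETS-IRF composite element (EICE), which PU.1 binds together with IRF4 or IRF8, was searched on both strands as GGAA and GAAA with any 2 bases between them, and a run of bases can match both motifs. It was found in 5 of 66 promoters of higher genes (7.58%; Cd209a, Clec4a1, Cybb, Spn and Trim5), in 1 of 49 of lower genes (2.04%; Cd8a) and in 2.97% of those of tested genes. A PU.1 site, GAGGAAGT, was found in 8 of 66 (12.1%), 3 of 49 (6.12%) and 4.16%. An AP-1 site, TGANTCA, was found in 10 of 66 promoters of higher genes (15.2%), 4 of 49 of lower genes (8.16%) and 6.2% of tested genes, and a KLF site, CCACACCC, in 6 of 66 (9.09%), 1 of 49 (2.04%) and 4.58%. Others were no more frequent in higher genes than in tested genes. An RBPJ site, GTGGGAA, was found in 4 of 66 (6.06%), 2 of 49 (4.08%) and 7.27%, a CEBP site, TTGCNNAAT, in 1 of 66 (1.52%), 0 of 49 and 1.9%, and a CRE site, TGACGTCA, in 0 of 66, 2 of 49 (4.08%) and 3.63%. The AP-1 and IRF composite element (AICE) was found in 0 of 66, 0 of 49 and 0.0432%. The promoters of the cDC2 lectin Cd209a (chr8:3748935-3749234, minus strand) and of Cd8a (chr6:71373177-71373476, plus strand), 1 from each side of the comparison, are shown with the EICE letters in capitals.
Cd209a promoter: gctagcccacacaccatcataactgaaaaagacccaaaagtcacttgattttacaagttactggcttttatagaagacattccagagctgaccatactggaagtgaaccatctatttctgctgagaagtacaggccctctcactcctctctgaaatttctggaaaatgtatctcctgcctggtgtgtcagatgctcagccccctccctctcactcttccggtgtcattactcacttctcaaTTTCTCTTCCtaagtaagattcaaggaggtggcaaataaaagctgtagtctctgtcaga
Cd8a promoter: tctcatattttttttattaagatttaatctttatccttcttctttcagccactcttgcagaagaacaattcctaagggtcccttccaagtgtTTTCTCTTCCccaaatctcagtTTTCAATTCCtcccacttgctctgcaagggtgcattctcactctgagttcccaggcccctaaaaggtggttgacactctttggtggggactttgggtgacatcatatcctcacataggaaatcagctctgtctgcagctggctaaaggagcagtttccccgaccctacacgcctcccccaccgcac
A match of letters is a description of the sequence and does not show that a factor binds there.

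Other pathways of dendritic cell function held 0 called genes, beside the 1.27% called over all genes. This was so for 16 tested genes of MHC class II and its loading (median 0.11), 22 of MHC class I and peptide loading (0.08), 17 of costimulation and checkpoint ligands (0.14), 24 of dendritic cell maturation (0.32), 31 of the cell cycle (0.10), 22 immediate early and heat shock genes (0.29), 20 of glycolysis (-0.43), 26 of cholesterol and fatty acid synthesis (-0.11) and 13 of cytochrome c oxidase (-0.23). At 1.27%, lists of 13 to 31 genes would hold few or no called genes. The 0 is therefore near the share over all genes and no result about these pathways. With adjusted p-values over the threshold, differences smaller than the standard errors allow may have gone undetected. Ccr7, the receptor that guides mature dendritic cells, had 596, 363 and 933 CPM in cDC2 KO and 387 and 585 CPM in cDC1 KO, a wide and overlapping spread (0.38 ± 0.78, adjusted p = 1). Ccl17, a chemokine that attracts CCR4+ T cells, had 9.27, 27.3 and 34.9 CPM in cDC2 KO, against 2.48 and 3.21 CPM in cDC1 KO (3.06 ± 0.83, adjusted p = 0.0974). Among 19 tested Toll-like receptor genes 0 were called. Nearest was Tlr7, a sensor of single-stranded RNA, with 9.13, 7.02 and 5.66 CPM in cDC2 KO, against 2.22 and 1.02 CPM in cDC1 KO (2.14 ± 0.56, adjusted p = 0.0681).

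Genes of the LKB1 complex and the AMPK family, 22 of them tested, held 0 called genes between the KO subsets, with a median of 0.14. A list of that size would also hold few or no called genes at the 1.27% called over all genes. Sik1, a salt-inducible kinase that LKB1 activates, had 50.4, 64.5 and 81.2 CPM in cDC2 KO, against 116 and 114 CPM in cDC1 KO, all cDC2 KO libraries below both cDC1 KO libraries (-0.82 ± 0.36, adjusted p = 0.492). Crtc3, a CREB coactivator that these kinases restrain, had 64.2, 76.3 and 88.3 CPM in cDC2 KO, against 48.4 and 43.9 CPM in cDC1 KO (0.72 ± 0.33, adjusted p = 0.523). Of 10 tested phospholipase C genes, 1 was called. Plcb1 (ENSMUSG00000051177, chr2:134786067-135475258, plus strand), which cleaves a membrane phosphoinositide downstream of G protein-coupled receptors, had 74.2, 66.5 and 54.3 CPM in cDC2 KO, against 6.67 and 6.27 CPM in cDC1 KO, and was 10.02-fold higher (3.33 ± 0.53, adjusted p = 0.00451). Its levels were 0 and 1.36 CPM in cDC2 WT and 0 and 0 CPM in cDC1 WT, so that it was present in both KO subsets and near the lower end of detection in WT cells. Its relative Plcb4 had 78.2, 129 and 121 CPM in cDC2 KO and 129 and 104 CPM in cDC1 KO, which overlapped (-0.09 ± 0.43, adjusted p = 1). Plcb1 lost its call without cDC1 KO 1 (adjusted p = 0.0871). Plcb1 lost its call without cDC1 KO 2 (adjusted p = 0.0912).

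**Figure D3:**
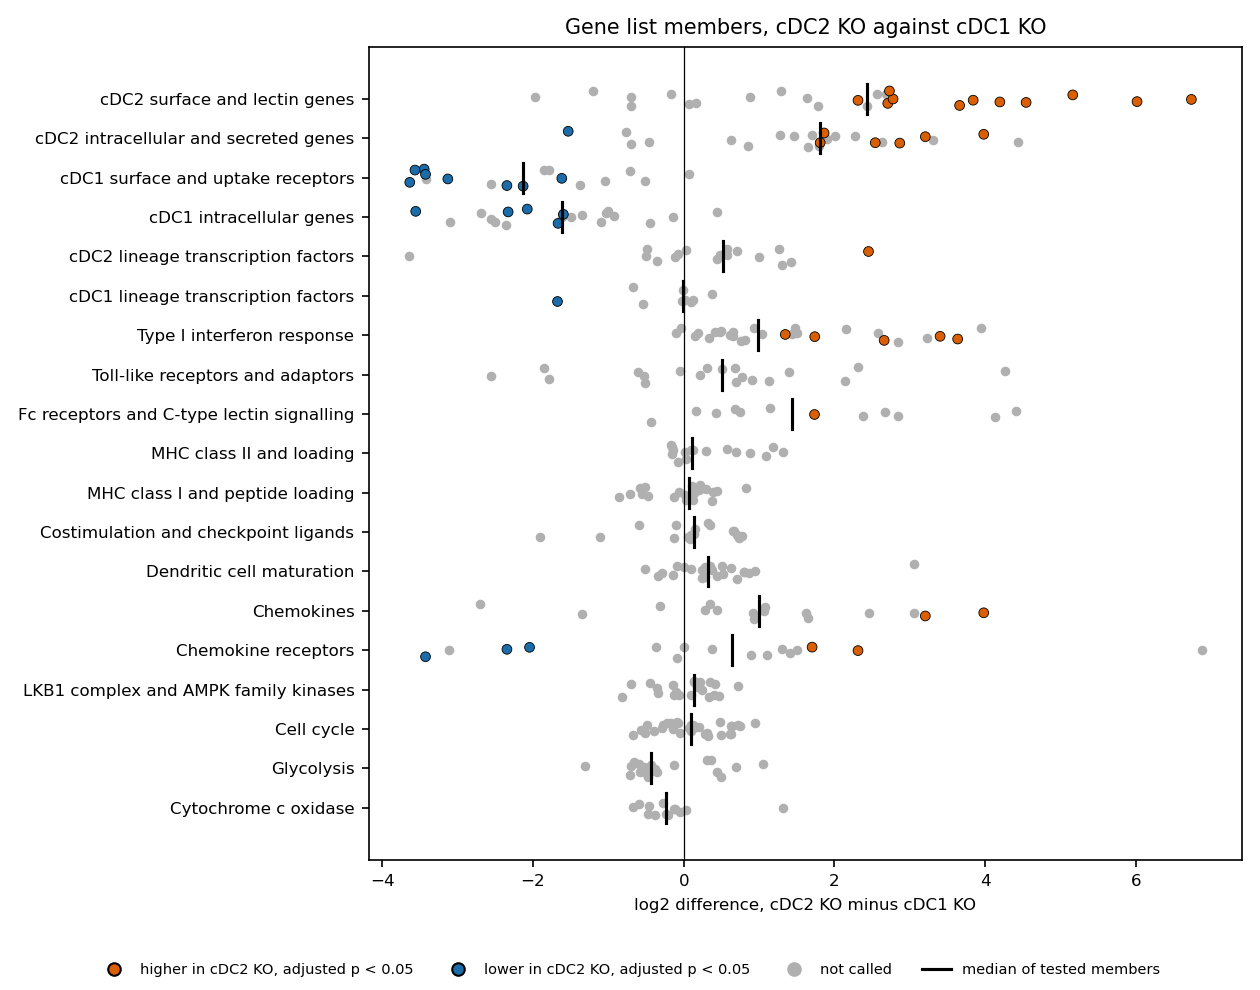
Differences between cDC2 KO and cDC1 KO for the tested members of 19 gene lists, on the log2 scale with positive values higher in cDC2 KO. Points are genes, coloured where called, and bars are list medians; called genes of the cDC2 surface list lie to the right, those of both cDC1 lists to the left, and lists such as MHC class II, costimulation and the cell cycle hold grey points only.

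The other genes with the smallest p-values were of mixed function. Pltp (ENSMUSG00000017754, chr2:164839518-164857711, minus strand), a transfer protein for phospholipids between lipoproteins, had 30.2, 27.9 and 35.4 CPM in cDC2 KO, against 0.916 and 1.46 CPM in cDC1 KO, and was 26.1-fold higher (4.70 ± 0.42, adjusted p = 1.03e-05). Cd72, an inhibitory receptor known from B cells, had 78.8, 71.5 and 67.7 CPM in cDC2 KO, against 8.24 and 3.94 CPM in cDC1 KO (3.57 ± 0.43, adjusted p = 0.000169). Cdh1, the adhesion molecule E-cadherin, had 70.2, 96.9 and 114 CPM in cDC2 KO, against 14.9 and 19.2 CPM in cDC1 KO (2.45 ± 0.33, adjusted p = 0.000696). Klrd1, which encodes CD94 of NK cell receptors, had 188, 194 and 158 CPM in cDC2 KO, against 48.1 and 37.3 CPM in cDC1 KO (2.08 ± 0.30, adjusted p = 0.00129). Bex6 (3.51, adjusted p = 0.000392) and Tbc1d16, a regulator of Rab GTPases (2.53, adjusted p = 0.00162), were also among the 15 higher genes with the smallest p. Klrd1 and Tbc1d16 lost their calls without cDC1 KO 2 (adjusted p 0.0619 to 0.0678). The difference of Cd72 was 4.20 without cDC1 KO 1.

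On the lower side, Agpat3 (ENSMUSG00000001211, chr10:78269178-78352489, minus strand), an acyltransferase of phospholipid synthesis, had 11.98, 15.7 and 11.8 CPM in cDC2 KO, against 99.5 and 134 CPM in cDC1 KO, and was 8.83-fold lower (-3.14 ± 0.37, adjusted p = 0.000142). P2ry14, the receptor for UDP-glucose, had 62.2, 37.7 and 36.01 CPM in cDC2 KO, against 179 and 197 CPM in cDC1 KO (-2.05 ± 0.32, adjusted p = 0.00213). Serpinf1, a secreted serpin also called PEDF, had 11.98, 12.7 and 14.4 CPM in cDC2 KO, against 46.6 and 60.96 CPM in cDC1 KO (-2.04 ± 0.32, adjusted p = 0.00213). Dbn1, the actin-binding protein drebrin, had 9.56, 10.5 and 17.6 CPM in cDC2 KO, against 62.1 and 138 CPM in cDC1 KO (-2.996 ± 0.49, adjusted p = 0.00291). Ttc39a had 2.28, 1.995 and 1.74 CPM in cDC2 KO, against 40.8 and 35.4 CPM in cDC1 KO, the widest gap in fold among the 15 lower genes with the smallest p (18.9-fold lower, adjusted p = 0.0029). The receptor phosphatase Ptprf (-3.26), Fcrla, a relative of Fc receptors that stays inside B cells (-2.40), the F-box protein Fbxo4 (-1.85), the aldehyde dehydrogenase Aldh3b1 (-2.07) and Fam149a (-3.67) were also among these 15. Fam149a lost its call without cDC1 KO 1 (adjusted p = 0.14). Serpinf1, Dbn1, Fbxo4 and Aldh3b1 lost their calls without cDC1 KO 2 (adjusted p 0.0671 to 0.125). The difference moved to -2.30 for Dbn1 without cDC1 KO 2 and to -2.69 for Fam149a without cDC1 KO 1.

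Markers of other cell types were measured in the same libraries. A bulk measurement cannot tell fewer cells of a type from less of its RNA per cell. The summed level of 17 pDC genes was 1330 to 1450 CPM in cDC2 KO and 1390 to 1540 CPM in cDC1 KO, and 41900 to 47800 CPM in pDC KO. Of 16 tested pDC genes, 2 were higher in cDC2 KO and 2 were lower. Spib, a transcription factor of pDC, had 39.7, 35.5 and 33.5 CPM in cDC2 KO, against 11.8 and 12.4 CPM in cDC1 KO (1.58 ± 0.30, adjusted p = 0.00955), and Smim5 had 15.4, 10.1 and 13.4 CPM in cDC2 KO, against 1.31 and 2.48 CPM in cDC1 KO (2.77 ± 0.48, adjusted p = 0.00475). Ccr9, a chemokine receptor of pDC and thymic cells, had 28.96, 33.8 and 37.03 CPM in cDC2 KO, against 181 and 93.3 CPM in cDC1 KO (-2.05 ± 0.45, adjusted p = 0.0295). Klk1, a kallikrein protease, had 0 counts in the 3 cDC2 KO libraries, against 0.654 and 0.729 CPM (5 counts each) in cDC1 KO. With cDC2 KO set at a floor of 3 counts over the group, it was 6.08-fold lower (adjusted p = 0.0189). That fold leaves out the counting error of cDC1 KO. Spib, Smim5, Ccr9 and Klk1 lost their calls without cDC1 KO 1 (adjusted p 0.112 to 0.509). Spib, Ccr9 and Klk1 lost their calls without cDC1 KO 2 (adjusted p 0.0573 to 0.155). Ccr9 and Klk1 lost their calls without cDC2 KO 1 (adjusted p 0.0533 to 0.141). Ccr9 and Klk1 lost their calls without cDC2 KO 2 (adjusted p 0.104 to 0.121). Ccr9 and Klk1 lost their calls without cDC2 KO 3 (adjusted p 0.0561 to 0.0946).

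The 16 macrophage genes summed to 223 to 268 CPM in cDC2 KO and 121 to 124 CPM in cDC1 KO, with Marco at 0 in both groups and Slc40a1 at 0 in cDC1 KO. Of 14 tested, 12 had a positive difference, and the median was 1.41. Adgre1, which encodes F4/80, was higher in cDC2 KO, with 15.98, 11.2 and 11.04 CPM in cDC2 KO, against 0.785 and 0.438 CPM in cDC1 KO (4.33 ± 0.93, adjusted p = 0.0273). C1qb, of the complement component C1q, had 10.1, 9.26 and 12.6 CPM in cDC2 KO, against 0.916 and 2.33 CPM in cDC1 KO, and was not called (2.71 ± 0.72, adjusted p = 0.0749). The 18 genes of monocytes and neutrophils summed to 1010 to 1350 CPM in cDC2 KO and 728 to 768 CPM in cDC1 KO, with Ly6c1 at 0 in cDC2 KO and Ngp, Cxcr2 and Retnlg at 0 in cDC1 KO, and 0 of 11 tested were called. These marker levels moved with the myeloid receptors of the cDC2 list, and their part in those differences was not tested. Adgre1 lost its call without cDC1 KO 1 (adjusted p = 0.252). Adgre1 lost its call without cDC1 KO 2 (adjusted p = 0.424). Adgre1 lost its call without cDC2 KO 1 (adjusted p = 0.14). Adgre1 lost its call without cDC2 KO 2 (adjusted p = 0.0956). Adgre1 lost its call without cDC2 KO 3 (adjusted p = 0.0923).

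The 20 genes of thymocytes and T cells summed to 227 to 267 CPM in cDC2 KO and 264 to 394 CPM in cDC1 KO, with Rag2 at 0 in cDC2 KO and Ptcra at 0 in cDC1 KO. Of these, Cd8b1, the partner chain of CD8α, was lower in cDC2 KO, with 2.85, 2.07 and 3.48 CPM in cDC2 KO, against 16.2 and 10.1 CPM in cDC1 KO (-2.25 ± 0.40, adjusted p = 0.00587), 16 of 20 tested had a negative difference, and the median was -1.23. That share moved with Cd8a, and its part in the levels of Cd8a was not tested. The 14 NK cell genes summed to 288 to 390 CPM in cDC2 KO and 207 to 216 CPM in cDC1 KO, with 0 members at 0 and Klrd1 the 1 called gene of 12 tested. The 14 genes of thymic epithelium and stroma summed to 144 to 196 CPM in cDC2 KO and 36 to 40.7 CPM in cDC1 KO. Most of that sum in cDC2 KO was Epcam, an epithelial adhesion molecule, with 155, 99.2 and 133 CPM in cDC2 KO, against 19.1 and 12.7 CPM in cDC1 KO (3.02 ± 0.47, adjusted p = 0.00213). Pdgfra and Cdh5 were at 0 in cDC2 KO and Krt5, Col1a1 and Dcn at 0 in cDC1 KO. Cdh5, an endothelial cadherin, had 0.392 and 1.17 CPM in cDC1 KO. With cDC2 KO set at the floor of 3 counts, it was 6.68-fold lower (adjusted p = 0.0346), again without the counting error of cDC1 KO. The 11 B cell genes summed to 22.1 to 48.1 CPM in cDC2 KO and 21.1 to 27.9 CPM in cDC1 KO, erythroid genes to 1.91 to 4.21 CPM in cDC2 KO and 1.18 to 2.63 CPM in cDC1 KO, and melanoma genes to 4.85 to 6.7 CPM in cDC2 KO and 1.9 to 3.92 CPM in cDC1 KO, with 0 called genes in each of these lists and among 4 sex-linked genes. Cd8b1 lost its call without cDC1 KO 1 (adjusted p = 0.141). Epcam and Cdh5 lost their calls without cDC1 KO 2 (adjusted p 0.0712 to 0.429). Cdh5 lost its call without cDC2 KO 1 (adjusted p = 0.0828). Cdh5 lost its call without cDC2 KO 2 (adjusted p = 0.147). Cdh5 lost its call without cDC2 KO 3 (adjusted p = 0.0894).

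The same subset difference was then measured with LKB1 present. Between cDC2 WT and cDC1 WT 1025 genes were called (8.73%), 440 higher (3.75%) and 585 lower (4.98%) in cDC2 WT. The larger share turned with the processing, with 548 higher and 500 lower under RLE scaling, 853 higher and 833 lower with DESeq2, and 717 higher and 645 lower without a filter. Of the 85 genes higher in cDC2 KO, 75 (88.2%) were also higher in cDC2 WT, and all 85 had a positive WT difference. The 75 made up 17% of the 440 genes higher in cDC2 WT. Of the 64 genes lower in cDC2 KO, 46 (71.9%) were also lower in cDC2 WT, and 62 had a negative WT difference. The 46 made up 7.86% of the 585 genes lower in cDC2 WT. The genes higher in cDC2 KO had a median difference of 2.45 between the KO subsets and 2.48 between the WT subsets, and the genes lower in cDC2 KO had medians of -2.15 and -1.97. Since the KO comparison chose these genes, its own medians describe the choice. Which comparison called more genes depended on the fit. When only the groups compared were fitted, 572 genes were called between the KO subsets and 102 between the WT subsets, and limma voom with sample weights called 818 and 760. The counts of the fit over all 15 libraries therefore do not rank the comparisons by size.

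**Figure D4:**
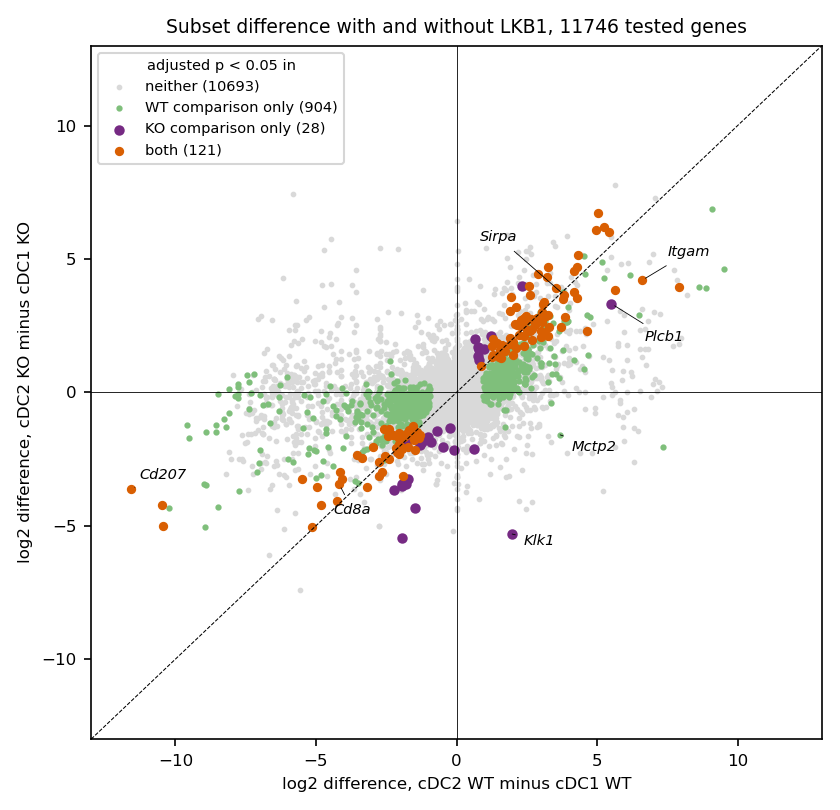
Difference between cDC2 KO and cDC1 KO (vertical axis) against the difference between cDC2 WT and cDC1 WT (horizontal axis) for the 11746 tested genes, both on the log2 scale, with the dashed line marking equal differences. Points are coloured by the comparison that called them; genes called in either KO direction lie mainly at the lower left and the upper right, and Klk1 and Mctp2 lie at the lower right.

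The difference of the differences was tested directly, as the KO subset difference minus the WT one. It was called for 1 of 11746 genes (0.00851%), with 994 genes at an unadjusted p under 0.05 (8.46%). The count was 0 when only the groups compared were fitted and 42 with DESeq2. Mctp2 (ENSMUSG00000032776, chr7:72077830-72306608, minus strand), a membrane protein with calcium-binding C2 domains, had 0.428, 0.878 and 0.290 CPM in cDC2 KO, against 1.83 and 1.75 CPM in cDC1 KO, and 2.91 and 5.27 CPM in cDC2 WT, against 0.469 and 0.182 CPM in cDC1 WT. It was below cDC1 in cDC2 KO (-1.59 ± 0.48, adjusted p = 0.145) and above cDC1 in cDC2 WT (3.69 ± 0.64, adjusted p = 0.0032), and the difference of the 2 was -5.28 ± 0.81 (adjusted p = 0.0472). That call was lost in 7 of the 9 fits with 1 library left out (adjusted p 0.0638 to 0.344) and kept without cDC2 KO 2 and without cDC2 WT 1. It was also lost in 7 of 12 other settings (adjusted p 0.0597 to 0.298), among them limma voom and the fit without robust estimation. Its levels were low in all 4 groups, with 3 counts in all in cDC1 WT, and 312, 430.3 and 403 CPM in pDC KO.

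For the subset markers the test of the difference was not passed. Itgam differed by 4.19 ± 0.46 between the KO subsets and by 6.59 ± 0.58 between the WT subsets, with 105 and 102 CPM in cDC2 WT, against 1.88 and 0.364 CPM in cDC1 WT, and the difference of the 2 was -2.40 ± 0.68 (unadjusted p = 0.00255, adjusted p = 0.382). Cd300lf had 93.5 and 64.6 CPM in cDC2 WT, against 1.88 and 1.27 CPM in cDC1 WT, with a difference of the differences of -1.81 ± 0.57 (adjusted p = 0.432). In Cd207 the KO subsets were nearer to each other, since it had 0 counts in both cDC2 WT libraries, against 72.9 and 36.04 CPM in cDC1 WT, and its cDC1 KO levels were lower than those (adjusted p of the difference of differences = 0.32). Sirpa (-0.16 ± 0.43, adjusted p = 0.967) and Cd8a (0.73 ± 0.47, adjusted p = 0.674) had smaller differences. Cd4 had 11.7 and 29.1 CPM in cDC2 WT, against 5.39 and 7.46 CPM in cDC1 WT, a WT difference of 1.67 ± 0.41 (adjusted p = 0.0173), and a difference of the differences of -1.84 ± 0.55 (unadjusted p = 0.00362, adjusted p = 0.407).

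Some genes were called between the KO subsets and not between the WT subsets, 10 of them higher and 18 lower in cDC2 KO, but none of these was called in the test of the difference. Ccr9 had 136 and 89.2 CPM in cDC2 WT, against 168 and 149 CPM in cDC1 WT, a WT difference of -0.50 ± 0.50 (adjusted p = 0.574; difference of the differences -1.55 ± 0.68, adjusted p = 0.568). Isg20 had 160.5 and 182 CPM in cDC2 WT, against 106 and 95.8 CPM in cDC1 WT (0.77 ± 0.33, adjusted p = 0.152; difference of the differences 0.58 ± 0.45, adjusted p = 0.747). For Plcb1, cDC2 WT held 9 counts and cDC1 WT 0, so no size is given for its WT difference or for the difference of the differences (adjusted p = 0.787). Klk1 and Sh2d5 were the 2 genes lower in cDC2 KO whose WT difference was positive. Sh2d5, an adaptor with an SH2 domain, had 2.28, 3.67 and 2.32 CPM in cDC2 KO, against 9.16 and 15.6 CPM in cDC1 KO (-2.14 ± 0.52, adjusted p = 0.0477), and 17.97 and 5.12 CPM in cDC2 WT, against 5.86 and 8.74 CPM in cDC1 WT (difference of the differences -2.77 ± 0.77, adjusted p = 0.382). Klk1 had 1.46 and 0.452 CPM in cDC2 WT, against 0.469 and 0 CPM in cDC1 WT (adjusted p of the difference of the differences = 0.211). Ccr9, Isg20, Plcb1, Klk1 and Sh2d5 lost their calls without cDC1 KO 1 (adjusted p 0.0871 to 0.509). Ccr9, Isg20, Plcb1, Klk1 and Sh2d5 lost their calls without cDC1 KO 2 (adjusted p 0.0573 to 0.583). Ccr9, Isg20, Klk1 and Sh2d5 lost their calls without cDC2 KO 1 (adjusted p 0.0533 to 0.193). Ccr9, Isg20, Klk1 and Sh2d5 lost their calls without cDC2 KO 2 (adjusted p 0.0551 to 0.121). Ccr9, Isg20, Klk1 and Sh2d5 lost their calls without cDC2 KO 3 (adjusted p 0.0561 to 0.172).

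**Figure D5:**
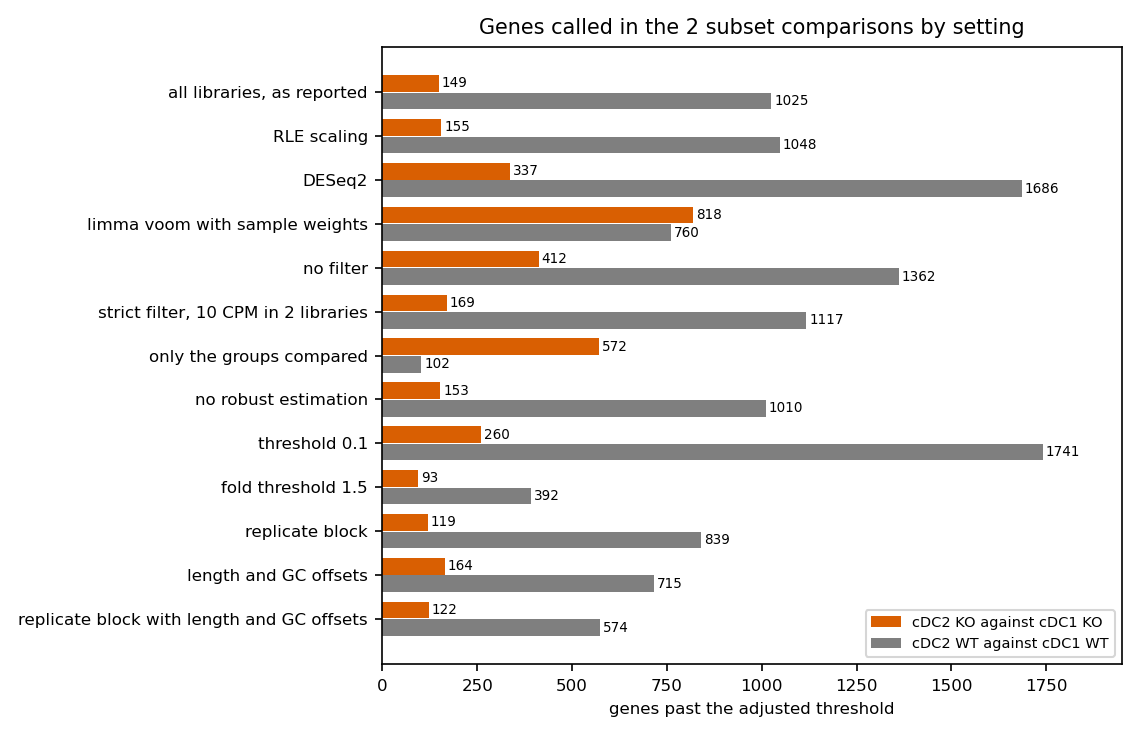
Number of genes called between cDC2 KO and cDC1 KO and between cDC2 WT and cDC1 WT with all libraries of the comparison, 1 pair of bars for each setting; bars start at 0 and carry their counts. Among the settings drawn the KO count ranges from 93 with a fold threshold of 1.5 to 818 with limma voom, and the WT count is the smaller of the pair when only the groups compared are fitted and with limma voom.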

How the data were processed

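Dendritic cells of 6 groups were profiled in 15 libraries of 3′ tags. The authors deposited whole-number read counts per gene, not normalized. Per the submitters' processing notes, mm10 and the tools HTSeq, STAR and DESeq2 were used. Versions, roles and use of strand: not given in the sources used here. Of 22165 genes, 21822 matched GENCODE M21 (GRCm38), which gave symbols and coordinates, and 5860 had no count.

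Genes kept by filterByExpr (11746, with 0.0538% of counts in the rest) were scaled by TMM and fitted with edgeR 4.0.16 in R 4.3.3, 1 coefficient per group over all 15 libraries (biological coefficient of variation 0.395). Tests were robust quasi-likelihood, two-sided and adjusted over all tested genes. Groups of 2 libraries rest on the pooled spread. Alternatives used limma 3.58.1 and DESeq2 1.42.0, and mgcv 1.9.3 for offsets on length and GC content.

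Members and lists (35, with 1 added later) were chosen with earlier results of these data known, and lists were described by counts only. The text names the 15 genes per direction with the smallest p among called genes whose groups did not overlap, passing over uninformative names. It also names up to 4 genes of smallest p per list and a fixed set of lineage genes, and marks others as chosen after their values were seen. Some genes that this rule picks are not reported here. For folds against 0, the group at 0 was set at a floor of 3 counts, which covers its own counting error only. The counting error of the other group was left out, so these folds are not bounds.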

Additional observations from a re-analysis of the deposited data

Results flagged for a closer look

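Mctp2 stood out as the 1 gene past the adjusted threshold in the direct test of the difference of the differences, a call that was lost in 7 of 9 fits with 1 library left out and in 7 of 12 other settings. The KO subset difference minus the WT one was -5.28 (edgeR quasi-likelihood test, adjusted p = 0.0472), with 0.428, 0.878 and 0.290 CPM in cDC2 KO, against 1.83 and 1.75 CPM in cDC1 KO, and 2.91 and 5.27 CPM in cDC2 WT, against 0.469 and 0.182 CPM in cDC1 WT. All levels were low, with 3 counts in all in cDC1 WT, and 312, 430.3 and 403 CPM were measured in pDC KO. The 17 pDC genes summed to 1600 to 2090 CPM in cDC2 WT and 1160 to 1520 CPM in cDC1 WT. In the KO subsets they summed to 1330 to 1450 CPM in cDC2 and 1390 to 1540 CPM in cDC1. The part of pDC RNA in the levels of Mctp2 was not tested.

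Cox6a2, a subunit of cytochrome c oxidase that is high in pDC, drew attention because all libraries moved in opposite directions in the 2 genotypes. It had 23.7, 24.6 and 28.2 CPM in cDC2 KO, against 32.97 and 33.7 CPM in cDC1 KO, and 8.98 and 2.56 CPM in cDC2 WT, against 1.17 and 0 CPM in cDC1 WT. The difference of the differences was -3.74, which did not pass the adjusted threshold (unadjusted p = 0.000516, adjusted p = 0.319). Its level in pDC KO was 1108, 1161 and 833 CPM. The part of pDC RNA in the levels of Cox6a2 was not tested either, beside the sums of pDC genes given above for Mctp2. No group had the 4 libraries needed to look for single outlying libraries.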

How the results depend on the processing

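The count of genes called between cDC2 KO and cDC1 KO (149) was 337 with DESeq2, 818 with limma voom and sample weights, 412 without a filter, 572 when only the groups compared were fitted, 260 at a threshold of 0.1, 93 with a fold threshold of 1.5, and 34 to 102 with 1 library left out. Other scaling (155), a stricter filter (169), no robust estimation (153) and offsets on length and GC content (164) kept it within 1.5 times. Between cDC2 WT and cDC1 WT the count (1025) was 1686 with DESeq2, 102 when only the groups compared were fitted, 1741 at the threshold of 0.1, 392 with the fold threshold, 574 with the block and offsets, and 253 to 742 with 1 library left out; its share of higher genes was 42.9% as reported and 52.3% with RLE scaling. The count of called differences of differences (1) was 42 with DESeq2, 38 without a filter, 0 when only the groups compared were fitted, without robust estimation, with the fold threshold, with the block, with offsets and with both, and 0 to 2 with 1 library left out. Genes called in both genotypes (121) numbered 248 with DESeq2, 316 with voom, 296 without a filter, 77 when only the groups compared were fitted, 206 at the threshold of 0.1, 70 with the fold threshold, and 29 to 107 with 1 library left out. Results of the gene lists moved in 149 cases over the other settings and stayed the same in 463. The cause was not tested.

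Whether libraries with the same number share a mouse or a day is not stated in the labels. Deviations from the group means correlated at 0.193 and -0.123 in the 2 KO pairs, which are too few to tell, and the numbers were not used as pairs. With the replicate number as a block 119 genes were called between the KO subsets, 111 of them among the 149, and 839 between the WT subsets. Of the 75 called genes named apart from Trim5, Zbtb18 and Spn, 10 lost their call with the block (Cd36, Treml4, Cd207, Sirpb1a, Ms4a6d, Isg20, Adgre1, Cdh5, Galc and Sh2d5).

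Signs turned only for uncalled genes near 0, among the genes named apart from Trim5, Zbtb18 and Spn. Over the other settings, results of the uncalled genes named were stronger in 42 cases, the same in 322 and reversed in 9. With 1 library left out in turn, the difference ranged from -0.29 to 0.04 for Cd4, turning without cDC2 KO 2, and from -0.09 to 0.39 for Batf3, turning without cDC2 KO 1, cDC2 KO 2 and cDC1 KO 2 (-0.09, -0.05 and -0.07). It ranged from -0.14 to 0.12 for Flt3, turning without cDC2 KO 1 and cDC1 KO 2 (-0.14 and -0.07), from -0.23 to 0.10 for Plcb4, turning without cDC2 KO 1 and cDC1 KO 1 (0.10 and 0.07), and from -0.02 to 0.71 for Ccr7, turning without cDC2 KO 3. With 2 to 3 libraries a group and a median standard error of 0.46 on the log2 scale, small differences could not be detected.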
